A study of Mus musculus with 10 samples.

Results

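The genes described here encode the mitochondrial ribosomal proteins, chosen by name: every protein-coding row of the count table whose mouse symbol begins with Mrpl or Mrps followed by a number. The rule found 77 genes among the 31655 rows of the table, 48 with an Mrpl symbol and 29 with an Mrps symbol. No expression value entered the rule. The libraries come from mouse heart. In the baicalin plus LPS group (5 libraries, numbered 1, 2, 3, 5 and 7), mice received baicalin, a plant flavonoid, by gavage at 100 mg/kg for 14 days and then a single intraperitoneal dose of 10 mg/kg LPS, the bacterial endotoxin lipopolysaccharide. In the LPS group (5 libraries, numbered 1 to 5), mice received distilled water by gavage over the same 14 days and the same LPS dose. Hearts were collected 72 h after LPS in both groups, so every library comes from an LPS-injected mouse, and the question the groups address is what baicalin given beforehand changes in this model of septic cardiomyopathy. Strain, sex and age are not given. The design names 8 mice per group. Since the labels do not say which mouse gave which library, a p-value here measures library-to-library spread, some of which may be technical. A saline group that the design also names was not analysed here, so the effect of LPS itself is not measured below.

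Mitochondria keep a small genome whose messenger RNAs encode core subunits of the respiratory chain and of ATP synthase, and these messages are translated inside the organelle by a ribosome of its own. The RNA of that ribosome is made from mitochondrial DNA, whereas every one of its proteins is encoded in the nucleus, made in the cytosol and imported. Some of these proteins descend from bacterial ribosomal proteins, others have no bacterial counterpart, and the heart, which depends on oxidative phosphorylation, needs both kinds. The members fall into 29 large-subunit proteins with a bacterial homologue, 21 large-subunit proteins specific to mitochondria, 16 small-subunit proteins with a bacterial homologue and 10 small-subunit proteins specific to mitochondria. Mrps18a and Mrps30 stand among the large-subunit proteins, where their products are found in spite of the symbol. Mrps18a and Mrps18b are counted as mitochondria-specific here, although they are paralogues of bacterial S18. The last member, Mrps36, carries a ribosomal symbol, but its product is known as a component of the alpha-ketoglutarate dehydrogenase complex of the tricarboxylic acid cycle.

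Library totals ran from 39396357 to 59596278 counts in baicalin plus LPS and from 43074077 to 75744274 counts in LPS. By annotation 35 members overlap a gene on the other strand and 12 overlap one on the same strand. The use of strand in counting is not given, so reads of such pairs cannot be told apart. Members held between 91 and 16676 counts per library, so none was near the limit of detection. Mitochondrially encoded genes took 40.5% ± 2.89 of the counts in baicalin plus LPS and 39.1% ± 5.61 in LPS (SD, n = 5 each). The LPS libraries did not stand together. The summed level of the acute-phase genes Saa3, Lcn2 and Serpina3n, a list picked earlier from these same libraries, was 952, 442, 775, 1562 and 717 CPM in the baicalin plus LPS libraries (1, 2, 3, 5 and 7), against 23.4, 20.9, 19.04, 2312 and 1233 CPM in LPS libraries 1 to 5. LPS libraries 1, 2 and 3 therefore lay at least an order of magnitude under every other library in transcripts that LPS is known to induce. Each main result is given with and without them. Levels are in CPM, counts scaled to a fixed library total after adjustment by TMM factors, and fold changes are log2 values of baicalin plus LPS over LPS from edgeR with their standard errors.

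No mitochondrial ribosomal protein transcript passed the threshold, an adjusted p under 0.05, in edgeR or DESeq2. In limma-voom with sample quality weights 20 passed, where 8.2% of all genes were called lower and 9.45% higher. Most members had small negative fold changes over the 10 libraries. That direction turned without LPS libraries 1 to 3 and was nearly lost without baicalin plus LPS libraries 2 and 3. By the members' summed level these are the highest LPS and the lowest baicalin plus LPS libraries. Leaving them out therefore raises the fold change by construction. In edgeR's quasi-likelihood test 0 of the 77 members passed, and the share called among all 16850 genes tested was 0.0%. The smallest adjusted p of a member was 0.327. Of the members, 62 of 77 had a negative log2 fold change (80.5%), against 50.6% of all genes tested, and their median was -0.10, against -0.0038 over all genes. The members' fold changes ran from -0.37 to 0.28, with quartiles of -0.20 and -0.03, and their median standard error was 0.15. At an unadjusted p under 0.05, 5 members were lower and 0 higher with baicalin, where all genes gave 5.88% lower and 5.26% higher. DESeq2 also called 0 members, against 1.06% of the genes it tested. The groups overlapped in every member, whereas they did not in 2.46% of all genes.

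The direction varied with the libraries that were included. Summed over the 77 members, the level was 2018, 1910.1, 1785, 2202 and 2271 CPM in the baicalin plus LPS libraries (1, 2, 3, 5 and 7), against 2469, 2416, 2525, 1842 and 1911 CPM in LPS libraries 1 to 5. The mean was 2037 ± 201 CPM in baicalin plus LPS and 2233 ± 328 CPM in LPS (SD, n = 5 each), a log2 ratio of -0.13 that lies within the spread of the libraries. The 3 highest sums were those of LPS libraries 1, 2 and 3, while LPS libraries 4 and 5 lay within the range of the baicalin plus LPS libraries. Without LPS libraries 1 to 3 the LPS group held only libraries 4 and 5. Of these, library 4 was the lowest of the 10 in 29 members and had the lowest quality weight (0.16). In that comparison the median log2 fold change of the members was 0.12 rather than -0.10, 21 of 77 were negative, and the log2 ratio of the summed levels was 0.12. All genes gave a median of 0.05 and 45.8% negative in that comparison. By class, negative members numbered 8 of 29 and 5 of 21 in the large subunit (bacterial homologues and mitochondria-specific proteins, medians 0.12 and 0.14), and 5 of 16 and 3 of 10 in the small subunit (medians 0.07 and 0.10). Without the 3 libraries 0 members passed the adjusted threshold, and 4 were higher and 0 lower at an unadjusted p under 0.05, where all genes gave 4.8% higher and 7.25% lower. The 4 were Mrpl18 (0.34 ± 0.13), Mrpl35 (0.40 ± 0.16), Mrpl47 (0.65 ± 0.28) and Mrpl49 (0.45 ± 0.19), log2 fold changes with their standard errors, named here after their values were seen. Without baicalin plus LPS libraries 2 and 3, the 2 lowest of their group by summed level, 42 of 77 members were negative, beside 52.4% of all genes, and the median was -0.02 for the members and for all genes. Leaving out the highest LPS or the lowest baicalin plus LPS libraries raises the fold change by construction. Without LPS library 4 or without LPS library 5, 65 and 70 members were negative (all genes 47.7% and 50.7%). A fit without both was not run. The split of directions also moved with the scaling. With library totals in place of TMM factors, 41 of 77 members and 38.6% of all genes were negative. The medians were -0.02 for the members and 0.07 for all genes. Relative to the median of all genes the members' median was -0.09 with TMM factors and -0.10 with library totals.

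**Figure D1:**
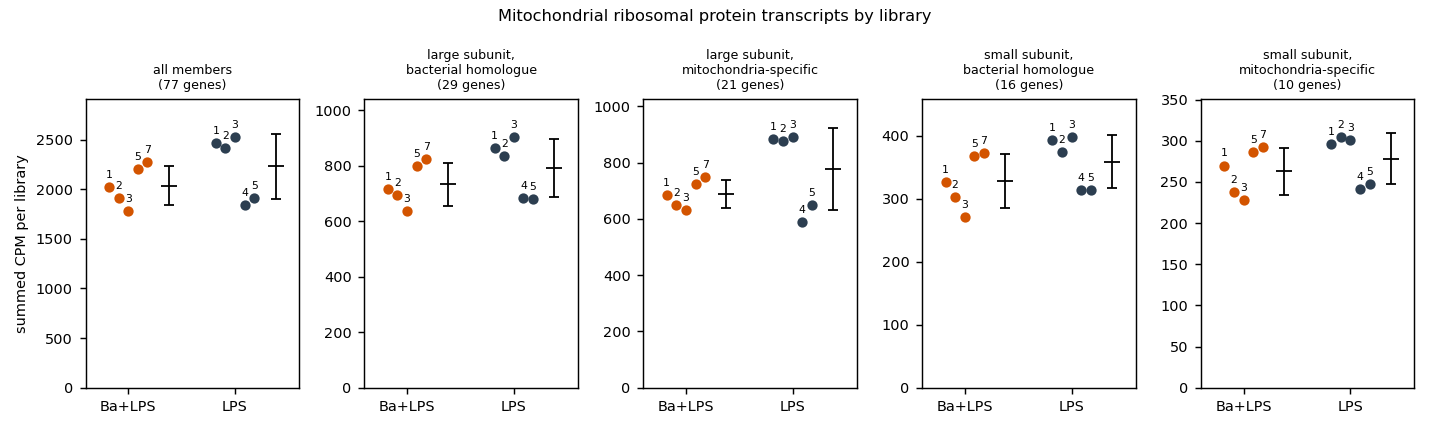
Summed CPM of the 77 members and of their 4 ribosomal classes, 1 point per library numbered as in the labels, with baicalin plus LPS (Ba+LPS) left of LPS in each panel and the bar beside the points giving mean and SD (n = 5). LPS libraries 1, 2 and 3 lie between 2416 and 2525 CPM for all members, above the 1785 to 2271 CPM of the baicalin plus LPS libraries, and LPS libraries 4 and 5 lie at 1842 and 1911 CPM.

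Among the large-subunit proteins with a bacterial homologue, 23 of 29 were negative at a median log2 fold change of -0.09, and the 4 members with the smallest p values belong to this class. Mrpl2 (chr17:46646229-46650139, GRCm38, plus strand), whose bacterial relative lies close to the peptidyl transferase centre, was at 18.1, 22.8, 18.5, 25.04 and 25.2 CPM in the baicalin plus LPS libraries (1, 2, 3, 5 and 7), against 31.8, 26.7, 30.8, 28.3 and 24.2 CPM in LPS libraries 1 to 5. Baicalin plus LPS libraries 1, 2 and 3 were under every LPS library and the other two lay inside the LPS range, so the groups overlapped. Its log2 fold change was -0.37 ± 0.13 (SE), with an edgeR adjusted p of 0.327. Mrpl2 overlaps Gm26904 on the same strand.

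Mrpl4 (chr9:21002738-21008839, plus strand) and Mrpl23 (chr7:142532686-142540747, plus strand) are homologues of bacterial proteins that line or border the tunnel through which the nascent chain leaves the ribosome. Mrpl4 was at 31.5, 40.2, 37.04, 38.4 and 34.2 CPM in the baicalin plus LPS libraries, against 49.98, 43.8, 58.3, 41.6 and 38.3 CPM in the LPS libraries. Mrpl23 was at 26.7, 28.3, 26.8, 28.8 and 26.5 CPM in the baicalin plus LPS libraries, against 35.3, 30.5, 33.01, 40.1 and 28.5 CPM in the LPS libraries. For Mrpl23 a single baicalin plus LPS library, number 5, exceeded the lowest LPS library and LPS library 4 was the highest of the 10. The log2 fold changes were -0.36 ± 0.12 for Mrpl4 and -0.29 ± 0.10 for Mrpl23 (SE; edgeR adjusted p = 0.332 for both). Mrpl2, Mrpl4 and Mrpl23 kept a negative value without LPS libraries 1 to 3, at -0.25 ± 0.18, -0.13 ± 0.14 and -0.31 ± 0.15.

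Mrpl9 (chr3:94443318-94451130, plus strand), the homologue of an elongated bacterial protein that reaches out from the large subunit, was at 16.7, 16.9, 15.8, 15.9 and 18.2 CPM in the baicalin plus LPS libraries, against 23.6, 23.6, 24.8, 16.1 and 17.2 CPM in the LPS libraries. The 3 high values were those of LPS libraries 1, 2 and 3, and LPS libraries 4 and 5 lay among the baicalin plus LPS libraries. Its log2 fold change was -0.33 ± 0.13 (SE), with an edgeR adjusted p of 0.3898, and it was 0.01 ± 0.13 without those 3 libraries. Mrpl9 overlaps Oaz3 on the other strand, a gene that averaged 0.0271 CPM in baicalin plus LPS and 0.05001 CPM in LPS. The same shape was seen in Mrpl3, which is mutated in a human disorder with cardiomyopathy: 38.5, 33.6, 37.6, 35.2 and 42.1 CPM in the baicalin plus LPS libraries, against 60.3, 58.5, 53.7, 29.2 and 39.8 CPM in the LPS libraries. The log2 fold change of Mrpl3 was -0.37 ± 0.18 over all libraries and 0.13 ± 0.16 without LPS libraries 1 to 3.

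Mrpl12 (chr11:120484613-120489065, plus strand), the homologue of the bacterial stalk protein that recruits translation factors and a protein also reported to bind the mitochondrial RNA polymerase, was at 100.4, 104, 83.7, 145 and 127 CPM in the baicalin plus LPS libraries, against 123, 108, 156, 101 and 83.6 CPM in the LPS libraries. The highest and the lowest of the 10 values were both LPS libraries, numbers 3 and 5, and the log2 fold change was -0.03 ± 0.19, a value whose sign turned with library totals (0.06). Mrpl17, a protein near the exit of the nascent chain tunnel, was at 22.4, 19.1, 19.3, 25.1 and 25.5 CPM in the baicalin plus LPS libraries, against 21.9, 23.4, 20.1, 36.7 and 23.8 CPM in the LPS libraries. LPS library 4 alone was high, and the other 9 libraries lay between 19.1 and 25.5 CPM.

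The 21 mitochondria-specific proteins of the large subunit had 17 negative members and a median of -0.09. Mrpl37 (chr4:107055874-107066868, minus strand) and Mrpl42 (chr10:95480805-95501940, minus strand) belong to the protein shell that the mitochondrial ribosome gained over its bacterial ancestor. Mrpl37 was at 42.97, 44.2, 47.1, 42.4 and 41.1 CPM in the baicalin plus LPS libraries, against 63.4, 58.4, 63.96, 42.8 and 43.6 CPM in the LPS libraries. Mrpl42 was at 163, 161, 165, 172 and 173 CPM in the baicalin plus LPS libraries, against 243, 239.8, 241, 147 and 159 CPM in the LPS libraries. In both genes LPS libraries 1, 2 and 3 formed a tight set above all others, and the remaining 7 libraries lay close together whatever their group. The log2 fold change of Mrpl37 was -0.32 ± 0.13 (SE; edgeR adjusted p = 0.394), and that of Mrpl42 was -0.30 ± 0.16 (SE; adjusted p = 0.502). Without LPS libraries 1 to 3 the values were 0.02 ± 0.12 for Mrpl37 and 0.14 ± 0.13 for Mrpl42.

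Mrpl52, whose protein sits in the large subunit, had the highest fold change of all members. It was at 8.28, 7.97, 7.23, 8.94 and 12.03 CPM in the baicalin plus LPS libraries, against 5.53, 5.79, 6.89, 9.73 and 8.59 CPM in the LPS libraries. The lowest of the 10 were LPS libraries 1, 2 and 3, LPS libraries 4 and 5 lay inside the baicalin plus LPS range, and baicalin plus LPS library 7 was the highest. The log2 fold change was 0.28 ± 0.19 (SE), with an edgeR adjusted p of 0.615, and it was -0.03 ± 0.22 without those 3 libraries.

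Mrpl44, which has a fold of the RNase III family and is mutated in a human infantile cardiomyopathy, was at 16.99, 19.6, 17.3, 20.1 and 20.6 CPM in the baicalin plus LPS libraries, against 23.96, 22.4, 23.4, 13.6 and 16.7 CPM in the LPS libraries. LPS library 4 was the lowest and LPS libraries 1, 2 and 3 the highest of the 10, so the LPS group held both ends. The log2 fold change was -0.08 ± 0.16, and it was 0.03 with library totals. Mrpl58, a peptidyl-tRNA hydrolase built into the large subunit that releases chains from stalled ribosomes, was at 12.7, 15.5, 12.4, 14.8 and 14.2 CPM in the baicalin plus LPS libraries, against 17.5, 14.7, 18.8, 15.3 and 13.3 CPM in the LPS libraries. The groups overlapped, and the log2 fold change was -0.19 ± 0.12.

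In the small subunit, the 16 proteins with a bacterial homologue had 14 negative members and a median of -0.13, and the 10 mitochondria-specific proteins had 8 negative members and a median of -0.14. Mrps35, a mitochondria-specific protein, was at 36.98, 36.2, 34.3, 34.6 and 41.99 CPM in the baicalin plus LPS libraries, against 53.9, 48.7, 58.3, 32.5 and 38.6 CPM in the LPS libraries. Mrps2, the homologue of a bacterial protein that binds late in the assembly of the subunit, was at 29.2, 28.5, 28.6, 31.1 and 30.7 CPM in the baicalin plus LPS libraries, against 34.4, 36.2, 38.7, 32.8 and 27.9 CPM in the LPS libraries. Mrps12, the homologue of the bacterial protein at the decoding centre where streptomycin resistance arises, was at 9.95, 10.7, 8.98, 12.97 and 10.9 CPM in the baicalin plus LPS libraries, against 13.2, 11.8, 15.1, 11.7 and 11.6 CPM in the LPS libraries. For Mrps35 and Mrps2 the 3 highest libraries were again LPS libraries 1, 2 and 3. For Mrps2 LPS library 5 was the lowest of the 10, and for Mrps12 baicalin plus LPS library 5 lay among the LPS libraries, so the groups overlapped. Their log2 fold changes were -0.33 ± 0.15 for Mrps35, -0.20 ± 0.10 for Mrps2 and -0.25 ± 0.13 for Mrps12, with edgeR adjusted p values of 0.451, 0.472 and 0.4901. The values without LPS libraries 1 to 3 were 0.06 ± 0.14 for Mrps35, -0.02 ± 0.13 for Mrps2 and -0.12 ± 0.17 for Mrps12.

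The 3 paralogues of bacterial S18 had different orders of the libraries. Mrps18c, the member closest to the bacterial protein in position, was at 3.004, 2.81, 2.56, 2.701 and 3.08 CPM in the baicalin plus LPS libraries, against 3.04, 3.28, 3.004, 1.896 and 2.58 CPM in the LPS libraries. Mrps18b was at 11.3, 7.63, 7.79, 12.6 and 13.8 CPM in the baicalin plus LPS libraries, against 10.6, 10.2, 10.5, 15.4 and 9.83 CPM in the LPS libraries. Mrps18a, whose protein sits in the large subunit, was at 20.7, 21.9, 21.9, 24.4 and 25.6 CPM in the baicalin plus LPS libraries, against 28.8, 26.2, 29.7, 24.2 and 21.7 CPM in the LPS libraries. LPS library 4 was the lowest library for Mrps18c and the highest for Mrps18b, so the 2 paralogues parted most in that library. The log2 fold changes were 0.04 ± 0.17 for Mrps18c, -0.09 ± 0.20 for Mrps18b and -0.19 ± 0.11 for Mrps18a, and the sign of the first 2 turned when LPS library 4 was left out, to -0.07 and 0.05. Mrps34, a mitochondria-specific protein needed for a stable small subunit, was at 14.3, 11.1, 10.9, 16.8 and 13.7 CPM in the baicalin plus LPS libraries, against 10.2, 12.9, 10.9, 22.7 and 15.01 CPM in the LPS libraries. LPS library 4 stood above the other 9 libraries, as in Mrpl17. The log2 fold change was -0.10 ± 0.22, and it was 0.12 without that library. Mrps34 overlaps Nme3 on the same strand and Mapk8ip3 on the other. Mrps36, the alpha-ketoglutarate dehydrogenase component, was at 21.2, 25.9, 18.5, 26.5 and 32.8 CPM in the baicalin plus LPS libraries, against 29.4, 25.8, 31.6, 15.3 and 20.8 CPM in the LPS libraries, with LPS library 4 the lowest. The log2 fold change of Mrps36 was 0.02 ± 0.21, and it was -0.11 without LPS library 4.

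**Figure D2:**
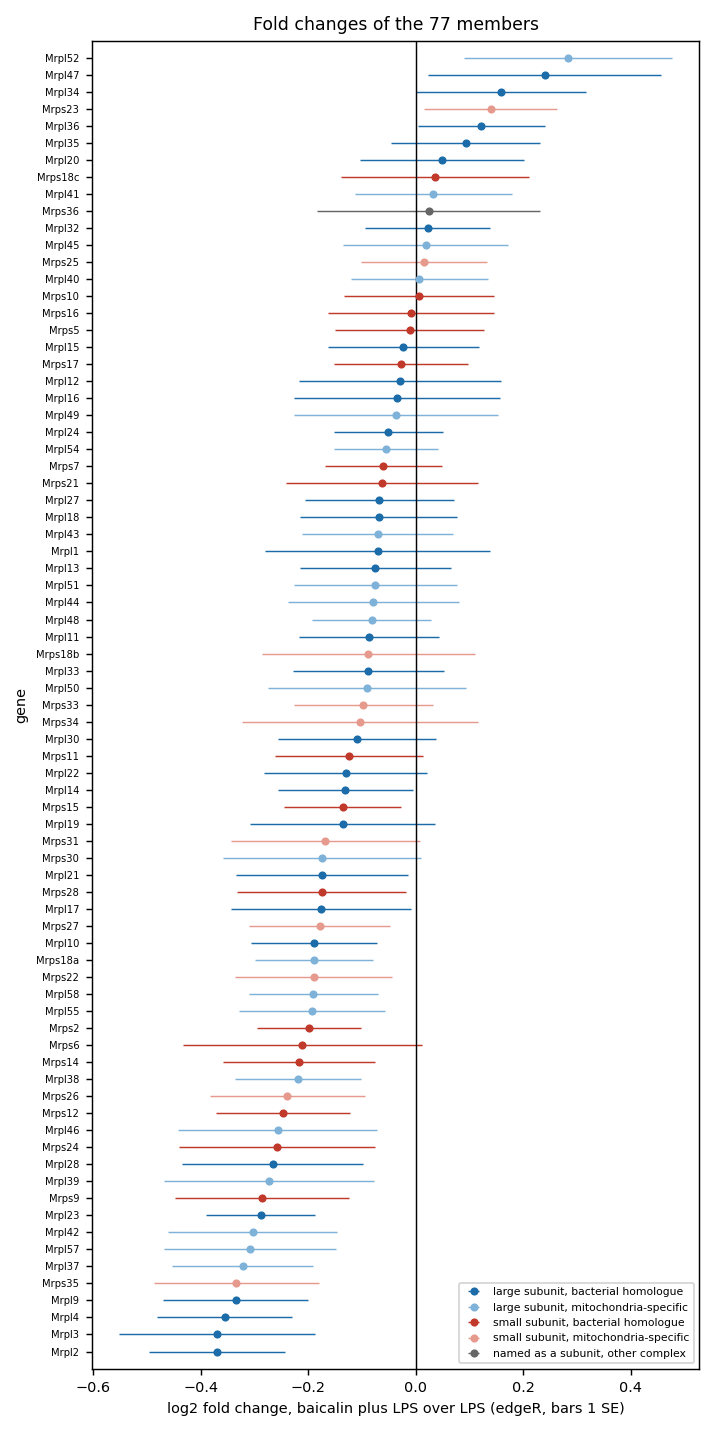
Log2 fold change of each of the 77 members, baicalin plus LPS over LPS from edgeR, with bars of 1 SE and colours for the class, ordered from the highest to the lowest. Values run from 0.28 (Mrpl52) to -0.37 (Mrpl2), 62 lie under 0 over all 10 libraries and 21 do so without LPS libraries 1, 2 and 3, and none passed an adjusted p of 0.05.

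The 15 members on the positive side were Mrpl52, Mrpl47, Mrpl34, Mrps23, Mrpl36, Mrpl35, Mrpl20, Mrps18c, Mrpl41, Mrps36, Mrpl32, Mrpl45, Mrps25, Mrpl40 and Mrps10. After Mrpl52, the highest were Mrpl47 at 0.24 ± 0.22, Mrpl34 at 0.16 ± 0.16 and Mrps23 at 0.14 ± 0.12 (SE). Mrps23 was at 77.9, 70.2, 68.9, 91.2 and 92.4 CPM in the baicalin plus LPS libraries, against 73.6, 81.4, 77.3, 58.7 and 72.5 CPM in the LPS libraries, with LPS library 4 the lowest and baicalin plus LPS libraries 5 and 7 the highest. Mrpl34 was at 18.1, 22.4, 20.2, 18.1 and 19.8 CPM in the baicalin plus LPS libraries, against 16.7, 20.8, 21.4, 11.5 and 18.02 CPM in the LPS libraries. Apart from LPS library 4, at 11.5 CPM, the libraries of both groups overlapped between 16.7 and 22.4 CPM. Of all members, 15 had a log2 fold change beyond 0.25 in either direction.

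Across libraries the same few stood out for many members. LPS libraries 1, 2 and 3 were the 3 highest of the 10 in 27 of 77 members (35.1%), against 9.55% of all genes tested. In 58 of 77 members LPS libraries 4 and 5 both lay under all of LPS libraries 1, 2 and 3. The same count was not taken over all genes, so it is not read as a trait of the members. The highest library was LPS library 3 for 24 members (31.2%), against 10.1% of all genes. The lowest was baicalin plus LPS library 3 for 28 members (36.4%), against 13.3% of all genes, and LPS library 4 for 29 members (37.7%), against 25.3%. In 8 members (10.4%), Mrpl17, Mrps34 and Mrps18b among them, LPS library 4 was instead the highest, against 24.3% of all genes, so this library was at either end for many genes of any kind. The SD of log2 CPM was larger in LPS than in baicalin plus LPS for 48 of 77 members (62.3%), against 56.1% of all genes.

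**Figure D3:**
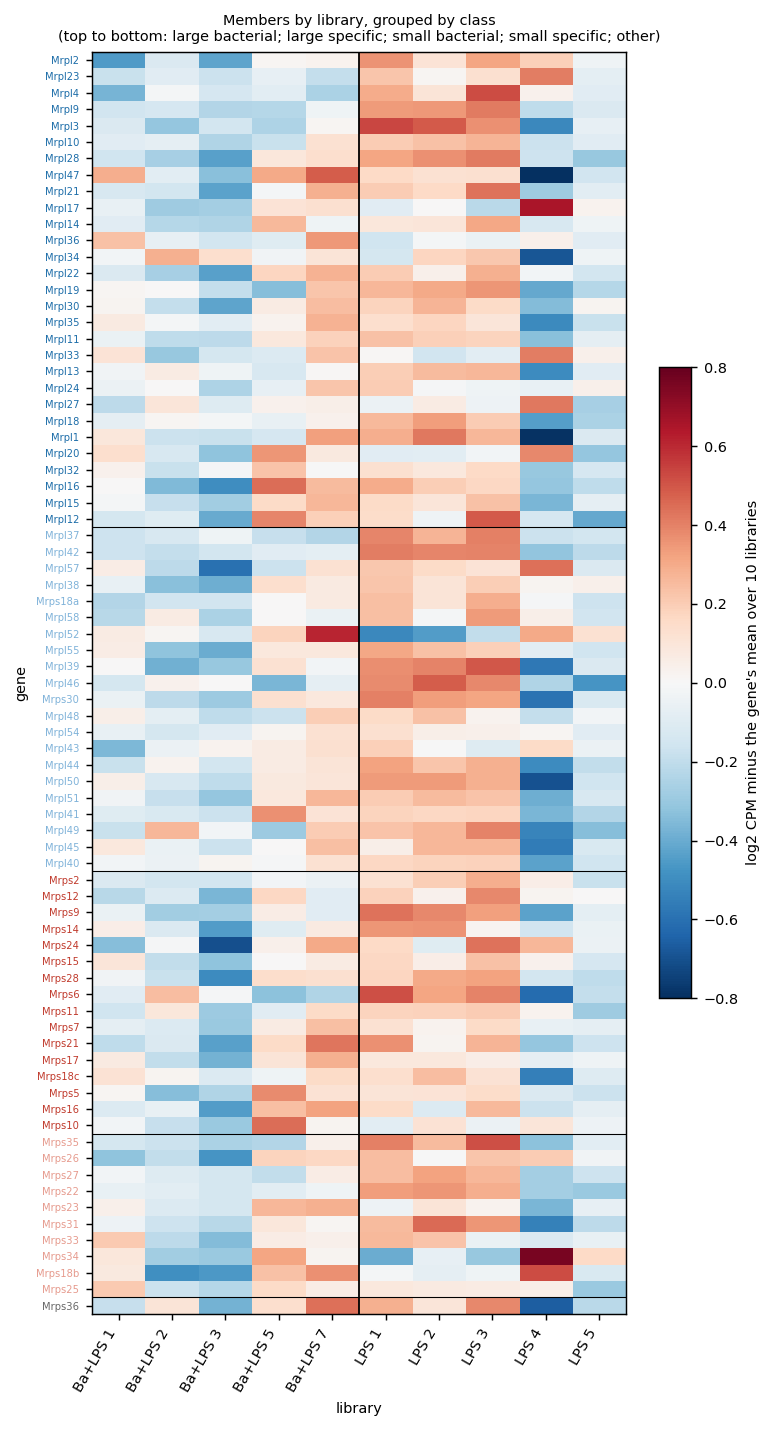
Log2 CPM of each member in each library minus the member's mean over the 10 libraries, with the 5 baicalin plus LPS libraries left of the 5 LPS libraries and members grouped by class and ordered by p within it (warm colours above the mean). LPS libraries 1, 2 and 3 are the 3 highest of the 10 in 27 members, and LPS library 4 is the lowest in 29 and the highest in 8.

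Weighting the libraries changed the count. With limma-voom and sample quality weights, which gave LPS libraries 1, 2 and 3 weights of 3.17, 2.33 and 2.47 and LPS library 4 a weight of 0.16, 20 members passed an adjusted p of 0.05, 19 lower and 1 higher with baicalin. All genes tested gave 8.2% lower and 9.45% higher under the same weights. The smallest adjusted p was that of Mrpl37 (0.0069, limma-voom), and the member on the higher side was Mrpl52. The weights ranged from 0.56 to 1.87 in baicalin plus LPS. Unweighted limma-voom called 0 members.

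Some promoters of these genes are shown beside the transcript values, and a link between their motifs and the levels was not tested. Of the 77 members, 68 matched an entry of the RefSeq promoter table (GRCm38.p6), which gives 250 bases before to 50 bases after each annotated start, in 74 windows. The stretches below are the 120 bases before the start, 5′ to 3′ on the strand of the gene. Capitals mark matches to an ETS core (CCGGAAG), an NRF1 core (CATGCGC) or a YY1 core (ATGGCGG), each searched on both strands. These are recognition motifs of the factor families best known for driving nuclear genes of mitochondria. Mrpl2 (chr17:46646101-46646220, plus strand), Mrpl37 (chr4:107066867-107066986, minus strand) and Mrpl42 (chr10:95501950-95502069, minus strand) stand for members with a negative log2 fold change and hold none of the 3 motifs here. Mrpl9 (chr3:94443216-94443335, plus strand) is of the same kind but holds 2 overlapping NRF1 cores, 1 on each strand. Mrpl22 (chr11:58171544-58171663, plus strand) holds an ETS core at -53 and an NRF1 core at -33, counted from the start, and had a log2 fold change of -0.13 ± 0.15. Mrpl52 (chr14:54426789-54426908, plus strand), with the highest fold change, holds an ETS core on the reverse strand at -47, and Mrpl58 (chr11:115403632-115403751, plus strand) holds one on the forward strand at -17.
Mrpl2: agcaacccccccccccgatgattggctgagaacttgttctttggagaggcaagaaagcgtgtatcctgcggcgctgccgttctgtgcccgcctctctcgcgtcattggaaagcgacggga
Mrpl37: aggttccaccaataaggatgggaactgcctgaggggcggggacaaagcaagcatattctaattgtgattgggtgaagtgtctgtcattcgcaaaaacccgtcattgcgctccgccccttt
Mrpl42: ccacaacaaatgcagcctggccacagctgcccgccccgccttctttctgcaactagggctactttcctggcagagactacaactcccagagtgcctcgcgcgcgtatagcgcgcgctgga
Mrpl9: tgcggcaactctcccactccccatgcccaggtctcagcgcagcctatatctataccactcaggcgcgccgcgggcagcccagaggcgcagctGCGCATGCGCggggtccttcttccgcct
Mrpl22: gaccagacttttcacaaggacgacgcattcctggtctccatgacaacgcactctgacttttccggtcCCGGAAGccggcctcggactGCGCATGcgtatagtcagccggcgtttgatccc
Mrpl52: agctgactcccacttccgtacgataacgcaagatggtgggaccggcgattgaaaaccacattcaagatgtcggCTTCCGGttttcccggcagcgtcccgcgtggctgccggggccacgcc
Mrpl58: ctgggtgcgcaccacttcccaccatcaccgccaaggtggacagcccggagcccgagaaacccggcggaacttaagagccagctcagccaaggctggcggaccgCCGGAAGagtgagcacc

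Over the full windows, the ETS core was present in 25 of 74 member windows (33.8%), against 15.6% of 14877 windows of tested genes and 8.86% of all 32851 windows. The YY1 core was present in 16.2% of member windows, 6.96% of those of tested genes and 4.05% of all windows. The NRF1 core was present in 10.8%, 6.1% and 3.91% in the same order. Other promoter motifs did not lean the same way: the SP1 box (GGGCGG) stood in 52.7% of member windows and 58.5% of those of tested genes, the CCAAT box (CCAAT) in 39.2% and 37.3%, the E-box (CACGTG) in 9.46% and 9.4%, and the TATA box (TATAAA) in 6.76% and 7.87%. All were searched on both strands, the E-box reads the same on each, and no motif contains another. The median GC content was 58.5% in member windows and 60% in those of tested genes. A match describes letters in the window and does not show that a factor binds there. The ETS core stood beside fold changes of either sign, as in Mrpl52 and Mrpl58.

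Per length, the members spanned a 49.4-fold range, from 73.1 FPKM for Mrpl12 to 1.48 FPKM for Mrps10, as means over the 10 libraries. FPKM (fragments scaled by gene length and by library total) allows levels of different genes to be compared. Of the members, 35 were at 10 FPKM or above and 8 were under 3 FPKM, and the median was 9.08 FPKM. Mrpl12 had 74.5 ± 11.4 FPKM in baicalin plus LPS and 71.6 ± 11.5 FPKM in LPS (SD, n = 5 each). It was followed by Mrps21 with 54.2 ± 12.1 FPKM in baicalin plus LPS and 53.1 ± 6.21 FPKM in LPS, by Mrpl42 with 46.7 ± 3.62 FPKM in baicalin plus LPS and 53.5 ± 7.92 FPKM in LPS and by Mrps23 with 52.6 ± 5.104 FPKM in baicalin plus LPS and 45.1 ± 3.19 FPKM in LPS. The next pair by class were Mrpl34, the homologue of a small basic bacterial protein, and Mrpl55, a mitochondria-specific protein. Mrpl34 had 33.7 ± 6.04 FPKM in baicalin plus LPS and 27.98 ± 4.63 FPKM in LPS, and Mrpl55 had 38.9 ± 4.35 FPKM in baicalin plus LPS and 42.02 ± 3.03 FPKM in LPS. Mrps15, the second of the small-subunit homologues, had 24.4 ± 2.47 FPKM in baicalin plus LPS and 25.4 ± 1.85 FPKM in LPS, and Mrps33, the second of the small-subunit proteins specific to mitochondria, had 13.2 ± 1.57 FPKM in baicalin plus LPS and 13.4 ± 1.35 FPKM in LPS. Mrpl12 had the highest mean in both groups, whereas the order of Mrpl42 and Mrps23 differed between the groups, by more than 1 SD of either gene in each.

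At the low end were Mrps10 with 1.51 ± 0.1705 FPKM in baicalin plus LPS and 1.45 ± 0.205 FPKM in LPS, and Mrpl33 with 1.53 ± 0.229 FPKM in baicalin plus LPS and 1.56 ± 0.419 FPKM in LPS. The length that the authors' FPKM implies for these genes is 8079 bases for Mrps10 and 7326 bases for Mrpl33, long for proteins of this size, and a long length lowers FPKM. In counts the 2 genes held between 462 and 893 (Mrps10) and between 476 and 856 (Mrpl33) per library. The class medians were 8.38 FPKM for large-subunit homologues, 11.8 FPKM for large-subunit specific proteins, 6.95 FPKM for small-subunit homologues and 6.02 FPKM for small-subunit specific proteins. Levels per length thus differed more among members than any member differed between the groups.

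**Figure D4:**
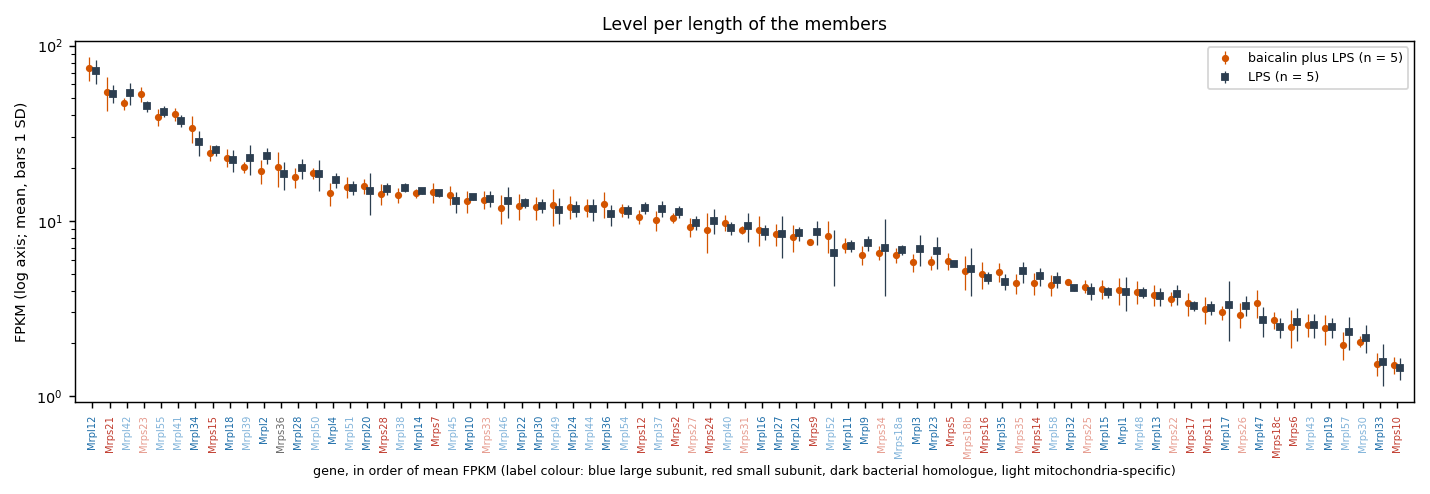
Mean FPKM (log axis, bars 1 SD, n = 5 each) of the 77 members in order of their mean over all 10 libraries, with baicalin plus LPS left of LPS for each gene. Levels fall from 73.1 FPKM for Mrpl12 to 1.48 FPKM for Mrps10, and for each gene the means of the groups lie close together on this scale.

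Most genes in other parts of the mitochondrial translation system also had negative log2 fold changes. In 8 lists, which also hold regulators, mitochondrially encoded genes and 82 cytosolic ribosomal protein genes, 0 of the 172 genes tested passed the threshold in edgeR. Beside the 80.5% of members, 21 of 25 genes of mitoribosome assembly and rRNA modification were negative at a median of -0.16, 12 of 14 tested translation factors at -0.16, 17 of 20 aminoacyl-tRNA synthetases and related amidotransferase genes at -0.21, and 4 of 5 subunits named outside the Mrp scheme at -0.16. At an unadjusted p under 0.05, 3 assembly genes, 3 translation factors and 6 synthetase genes were lower, and 0 genes of these 3 lists were higher (all genes 5.88% lower, 5.26% higher). Without LPS libraries 1 to 3 the medians were positive, at 0.09 for assembly, 0.11 for translation factors, 0.05 for synthetases and 0.05 for the other subunits. The median over all genes was also positive in that comparison, at 0.05, so the synthetases and the other subunits lay close to it. All 4 lists thus had a negative median over the 10 libraries, as the members did, and a positive one without those 3, as all genes did.

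Tufm, the mitochondrial elongation factor that carries aminoacyl-tRNA to the ribosome, was at 103, 106, 96.99, 112 and 104 CPM in the baicalin plus LPS libraries (1, 2, 3, 5 and 7), against 171, 150.1, 181, 138 and 112 CPM in LPS libraries 1 to 5. Each LPS library was above every baicalin plus LPS library, though LPS library 5 exceeded the highest of them by less than 1 CPM. Its log2 fold change was -0.52 ± 0.13 (SE), with an adjusted p of 0.278 in edgeR and 0.0423 in DESeq2, which called it. Mrrf, which recycles ribosomes after termination, was at 38.4, 33.3, 30.4, 32.8 and 34.8 CPM in the baicalin plus LPS libraries, against 40.5, 43.4, 43.8, 38.7 and 38.002 CPM in the LPS libraries. The groups overlapped through baicalin plus LPS library 1, and the log2 fold change was -0.27 ± 0.09.

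Among the synthetase genes, Aars2, which charges alanyl-tRNA and is mutated in a human infantile cardiomyopathy, was at 14.5, 14.4, 12.6, 15.4 and 13.6 CPM in the baicalin plus LPS libraries, against 19.6, 18.5, 21.1, 16.4 and 16.95 CPM in the LPS libraries. Cars2, the cysteinyl-tRNA synthetase, was at 14.1, 13.4, 12.5, 11.2 and 13.2 CPM in the baicalin plus LPS libraries, against 20.8, 18.4, 18.8, 15.5 and 14.3 CPM in the LPS libraries. In both genes every LPS library lay above every baicalin plus LPS library, which was so for 4 of the 20 genes of this list, against 2.46% of all genes in either direction. The log2 fold changes were -0.39 ± 0.10 for Aars2 and -0.45 ± 0.12 for Cars2 (SE), with an edgeR adjusted p of 0.299 for both. Rcc1l, an assembly factor, was at 8.58, 7.24, 5.79, 7.47 and 8.52 CPM in the baicalin plus LPS libraries, against 9.53, 9.504, 9.702, 10.2 and 9.59 CPM in the LPS libraries. Eral1, which chaperones the small-subunit ribosomal RNA, was at 9.19, 8.75, 7.56, 10.4 and 12.1 CPM in the baicalin plus LPS libraries, against 12.7, 11.6, 12.96, 11.6 and 12.2 CPM in the LPS libraries. The groups did not overlap for Rcc1l, and they did for Eral1 through baicalin plus LPS library 7. Dap3 and Ptcd3, small-subunit proteins with other symbols, had log2 fold changes of -0.29 ± 0.15 and -0.25 ± 0.19, and both were highest in LPS libraries 1, 2 and 3.

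The ribosomal RNAs that these proteins bind, mt-Rnr1 of the small subunit and mt-Rnr2 of the large one, varied more between libraries than the summed transcripts of the proteins. Their summed level was 9952, 4558, 4752, 9217 and 11767 CPM in the baicalin plus LPS libraries (1, 2, 3, 5 and 7), against 11696, 12291, 11815, 2972 and 9415 CPM in LPS libraries 1 to 5. LPS library 4 and baicalin plus LPS libraries 2 and 3 were low and the other 7 libraries lay between 9217 and 12291 CPM. In mRNA libraries these values count only the ribosomal RNA that was captured. The log2 fold changes were -0.35 ± 0.38 for mt-Rnr1 and -0.23 ± 0.39 for mt-Rnr2 (SE). The 13 proteins that the mitoribosome translates had 7 negative members and a median of -0.03. At an unadjusted p under 0.05, 1 was lower (mt-Co2, subunit 2 of cytochrome oxidase, -0.59 ± 0.22) and 1 higher (mt-Atp8, a subunit of ATP synthase, 1.71 ± 0.74), where all genes gave 5.88% lower and 5.26% higher. The mt-Atp8 value rested on baicalin plus LPS library 5, at 265 CPM beside a next highest of 53.4 CPM, and without that library it was 0.58. The reading frame of mt-Atp8 overlaps that of mt-Atp6, so their reads cannot be fully separated.

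Regulators of nuclear genes for mitochondria had 9 negative genes of 11 and a median of -0.09. Without LPS libraries 1 to 3 the median was 0.12, beside 0.05 over all genes. None was lower or higher at an unadjusted p under 0.05. Polrmt, the mitochondrial RNA polymerase, had a log2 fold change of -0.26 ± 0.12, and Nrf1, the factor that binds the NRF1 motif, had one of -0.27 ± 0.14 (SE). Nrf1 was at 8.05, 9.56, 9.14, 9.45 and 8.84 CPM in the baicalin plus LPS libraries, against 8.83, 9.403, 10.2, 14.2 and 11.8 CPM in the LPS libraries, with LPS library 4 the highest.

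The ribosomal proteins of the cytosol had mostly positive log2 fold changes. Of 82 tested genes 20 were negative, the median log2 fold change was 0.14, and at an unadjusted p under 0.05 there were 10 higher and 1 lower (all genes 5.26% higher, 5.88% lower). Their summed level was 9132, 8909.7, 8175, 10201 and 10261 CPM in the baicalin plus LPS libraries (1, 2, 3, 5 and 7), against 7571, 7167, 7435, 11879.7 and 9016 CPM in LPS libraries 1 to 5. LPS libraries 1, 2 and 3 were the lowest of the 10 and LPS library 4 was the highest, whereas LPS libraries 1, 2 and 3 were the highest for the mitochondrial ribosomal proteins. Without LPS libraries 1 to 3 their median was -0.12. Rpl39, a small protein at the exit of the cytosolic ribosome, had 0.49 ± 0.13 (SE; edgeR adjusted p = 0.296). The lower gene was Rpl3l, the form of Rpl3 known from striated muscle, at 72.5, 70.4, 58.9, 65.2 and 82.6 CPM in the baicalin plus LPS libraries, against 185, 171, 185, 81.1 and 82.4 CPM in the LPS libraries. Its log2 fold change was -1.01 ± 0.25, with an adjusted p of 0.278 in edgeR and 0.0264 in DESeq2, which called it. Its 3 high libraries were LPS libraries 1, 2 and 3, the lowest for the summed list. Many cytosolic ribosomal protein genes have near-identical processed pseudogenes, so their counts are uncertain where reads could be split.

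Cell type markers differed between the same libraries. The 10 cardiomyocyte markers (Myh6, Tnnt2, Tnni3, Actc1, Ttn, Ryr2, Pln, Nppa, Myl2 and Actn2) had 7 negative genes, and their summed level was 40058, 50410.3, 45894, 45960.0 and 39406 CPM in the baicalin plus LPS libraries, against 64503, 62084, 70534, 34416 and 39204 CPM in the LPS libraries. The 3 highest were again LPS libraries 1, 2 and 3, and LPS library 4 the lowest. The 8 macrophage markers had 8 positive genes, with sums of 155 to 496 CPM in baicalin plus LPS and 102 to 322 CPM in LPS, LPS libraries 1, 2 and 3 being lowest at 102 to 120 CPM. The 7 fibroblast markers had 7 positive genes, with sums of 456 to 1867 CPM in baicalin plus LPS and 490 to 749 CPM in LPS. The 7 neutrophil markers had 4 positive genes, with sums of 31.9 to 86.2 CPM in baicalin plus LPS, 1.99 to 5.13 CPM in LPS libraries 1, 2 and 3, and 207 and 44.0 CPM in LPS libraries 4 and 5. Of these, Ly6g was at 0 in LPS libraries 1 and 3, and the markers of the other lists were above 0 in all 10 libraries.

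The 8 endothelial markers had 7 negative genes, with sums of 501 to 761 CPM in baicalin plus LPS and 574 to 864 CPM in LPS. The 6 smooth muscle and pericyte markers had 3 negative genes, with sums of 406 to 643 CPM in baicalin plus LPS and 481 to 872 CPM in LPS. The 5 erythroid markers had 5 negative genes, all 5 at an unadjusted p under 0.05 (all genes 5.88% lower), with sums of 21.5 to 72.6 CPM in baicalin plus LPS and 13.2 to 486 CPM in LPS. No marker passed the adjusted threshold in edgeR or DESeq2. With quality weights 5 cardiomyocyte, 1 endothelial, 1 erythroid and 1 smooth muscle marker were lower, and 3 fibroblast, 7 macrophage and 7 neutrophil markers were higher. The shares over all genes under these weights were 8.2% lower and 9.45% higher. The part that cell composition has in the member values was not tested, and in bulk heart RNA fewer cells of a type and less RNA per cell cannot be told apart.

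**Figure D5:**
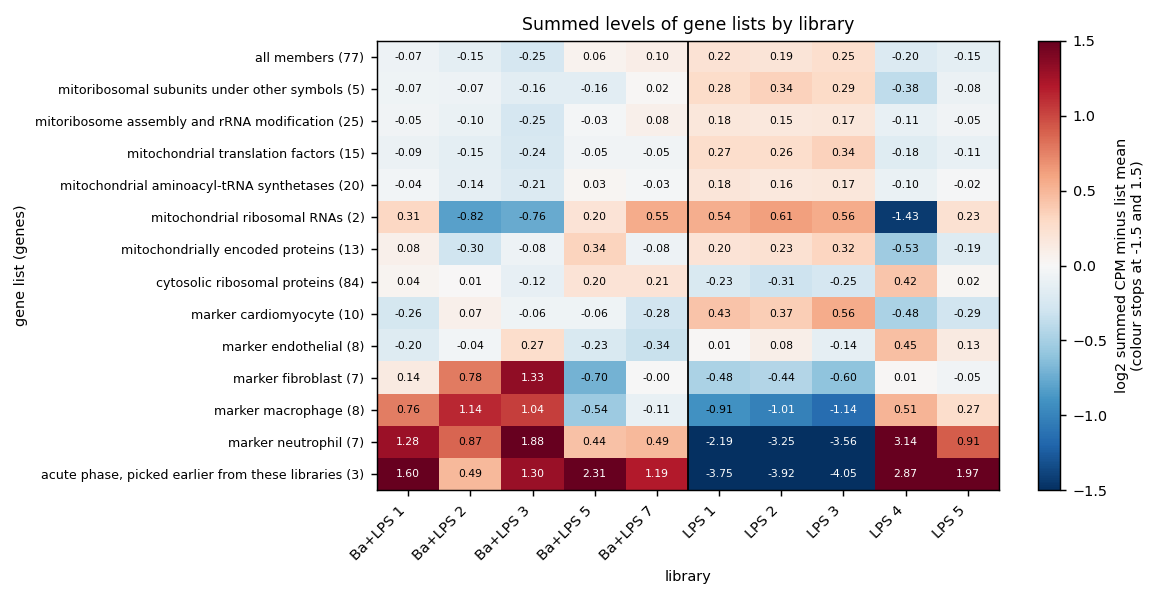
Log2 summed CPM of each gene list in each library minus the list's mean over the 10 libraries, with the baicalin plus LPS libraries left of the LPS libraries and the number of genes in parentheses. The members, the other subunits, assembly factors, translation factors and synthetases are highest in LPS libraries 1, 2 and 3, as are the cardiomyocyte markers, while cytosolic ribosomal proteins, macrophage, neutrophil and acute-phase genes are low in LPS libraries 1, 2 and 3.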

How the data were processed

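The deposited table holds whole-number read counts per Ensembl gene, not normalized by the authors, and a second deposited table holds FPKM. Dividing counts by 1 length for each gene and by library totals gave the deposited FPKM to a relative difference of 4.4e-13, so FPKM served to compare genes and as an alternative unit. The genome build was mm10, per the submitters' processing notes. The library kit was for mRNA, per the labels' protocols. Other upstream steps (aligner, counter, annotation, strand) were not given in the sources used here. All value columns were mapped to a labelled library (0 left over). Between 61.6% and 64.7% of low counts (1 to 50) in a library were even, so totals are not independently counted fragments.

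Symbols, biotypes and coordinates came from GENCODE M21 on GRCm38. Mrpl53 was not analysed here. Counts were tested with edgeR 4.0.16 (R 4.3.3): TMM factors, filtering by group (16850 genes, all 77 members), a robust quasi-likelihood F test, two-sided, Benjamini-Hochberg adjusted over all genes, threshold 0.05. The standard error came from the F statistic. The biological coefficient of variation was 31.4%. Alternatives used DESeq2 1.42.0, limma 3.58.1, other scalings and filters, log2(FPKM + 0.1) and log2(FPKM + 1), and fewer libraries. The script was tested on simulated data. Medians, sums and counts over lists carry no test. Libraries of a group all differed by more than sampling noise (smallest chi-square per degree of freedom 15.2).

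The members and lists were chosen with earlier results of these data known. Genes are named by rule: the 10 members of smallest p, the 2 of highest FPKM in each class, the 2 of lowest FPKM, members with groups that do not overlap (0 found), Mrps12, Mrpl12, Mrpl58, Mrpl3, Mrpl44, Mrps36, Mrps18a, Mrps18b and Mrps18c for their roles, and the 2 of smallest p in each other list. Mrpl17, Mrpl52 and Mrps34 were added after their values were seen, as were Mrpl47, Mrpl22 and others given in counts of few genes or shown for their promoters.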

Additional observations from a re-analysis of the deposited data

Results flagged for a closer look

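In 90 groups of 5 libraries (each of 44 named genes, and the summed level of the members, in each group), the highest or lowest library was set against the rest of its group, and 5 stood apart by Dixon's criterion (a gap to the nearest library of more than 0.71 of the range). Chance alone would flag about 1 in 20 groups, close to the share found. Among members, Mrpl17 was at 36.7 CPM in LPS library 4, with the next LPS library at 23.8 CPM and the lowest at 20.1 CPM. Mrps18b was at 15.4 CPM in LPS library 4, with the others between 9.83 and 10.6 CPM. Among other genes, mt-Rnr2 was at 2100.4 CPM in LPS library 4, with the next at 7633 CPM. Rcc1l was at 10.2 CPM in LPS library 4, with the others between 9.50 and 9.70 CPM, a narrow range. In baicalin plus LPS library 5, mt-Atp8 was at 265 CPM, with the next at 53.4 CPM. Of the 5, 4 lay in LPS library 4, the library with the lowest quality weight (0.16). That library was also the highest of the 10 in 24.3% of all genes tested and the lowest in 25.3%. Mrpl17 was named after its values were seen, so its flag cannot be set against chance. The flags are not read as a trait of the named genes.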

How the results depend on the processing

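Values are over all 77 members, and 44 genes named in the text were followed, of which 23 changed sign under at least 1 alternative. No member passed an adjusted p of 0.05 under any alternative run except quality weights (20, where all genes gave 8.2% lower and 9.45% higher). Members at an unadjusted p under 0.05 numbered 5, where all genes gave 5.88% lower and 5.26% higher. They numbered 3 with upper-quartile factors (all genes 4.69% lower, 6.49% higher) and 2 with library totals (2.81% lower, 6.61% higher). There was 1 with log2(FPKM + 0.1) (2.63% lower, 6.34% higher) and 1 with log2(FPKM + 1) (2.69% lower, 6.24% higher). Quality weights gave 36 (all genes 16.0% lower, 17.5% higher). The fit without baicalin plus LPS libraries 2 and 3 gave 3 (5.43% lower, 4.01% higher). Leaving out 1 library at a time gave 2 (without LPS library 3, all genes 3.83% lower, 3.67% higher) to 15 (without LPS library 4, 9.29% lower, 8.81% higher). The count was 13 without LPS library 5 (all genes 6.69% lower, 6.01% higher). It was 3 without baicalin plus LPS library 1 (4.39%, 4.66%), LPS library 1 (4.15%, 3.88%) or LPS library 2 (4.77%, 4.19%). Negative members numbered 62 (all genes 50.6%), against 41 with library totals (all genes 38.6%). With the FPKM pseudocounts of 0.1 and 1 they numbered 41 and 40 (all genes 36.2% and 36.6%). They numbered 21 without LPS libraries 1, 2 and 3 (all genes 45.8%) and 42 without baicalin plus LPS libraries 2 and 3 (52.4%). Leaving out 1 library gave 52 (without baicalin plus LPS library 3, all genes 50.5%) to 70 (without LPS library 5, 50.7%). The median was -0.17 to -0.06 leaving out 1 library. Without LPS libraries 1, 2 and 3 it was 0.12, and the log2 ratio of summed levels was 0.12. Without baicalin plus LPS libraries 2 and 3 the median was -0.023, beside -0.019 over all genes. Both sets of libraries lay at 1 end of their group by summed level, so leaving them out raises the fold change by construction. In the 8 lists (172 genes tested), genes past the adjusted threshold numbered 0, against 2 in DESeq2 and 59 with quality weights. The shares over all genes were 0.0%, 1.06%, and 8.2% lower with 9.45% higher. Genes at an unadjusted p under 0.05 numbered 25 (all genes 5.88% lower, 5.26% higher), against 94 with quality weights (16.0% and 17.5%) and 15 without LPS libraries 1, 2 and 3 (7.25% and 4.8%). Leaving out 1 library gave 16 (without LPS library 3, all genes 3.83% and 3.67%) to 64 (without LPS library 4, all genes 9.29% and 8.81%).

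Both groups have libraries numbered 1, 2, 3 and 5, but no label says that the numbers pair them. Correlations of deviations from the group means between libraries of the same number were -0.10, 0.08, -0.04 and 0.05, which cannot exclude a pairing. A replicate block over those 8 libraries gave 13 members at an unadjusted p under 0.05 and 46 genes in the lists, and the same 8 libraries without the block gave 20 and 47. All genes gave 7.89% lower and 7.24% higher under the block, and 9.1% lower and 9.27% higher without it. Under the block the log2 fold changes that turned sign were -0.00045 for Mrps10, -0.22 for Mrps36, -0.10 for Mrps18c and 0.11 for Mrps34. Without the block, over the same 8 libraries, they were -0.22 for Mrps36, -0.10 for Mrps18c and 0.11 for Mrps34.

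Log2 fold changes of named genes that turned sign were as follows, and the cause was not tested. Without LPS libraries 1, 2 and 3 they were 0.013 for Mrpl9, 0.021 for Mrpl37, 0.062 for Mrps35, 0.13 for Mrpl3, 0.14 for Mrpl42, 0.24 for Mrps21, 0.060 for Mrps33, 0.29 for Mrpl12, 0.048 for Mrpl55, -0.0026 for Mrps10, 0.33 for Mrpl44, 0.010 for Mrps18a, -0.032 for Mrpl52, 0.052 for Dap3, 0.26 for Ptcd3, 0.57 for mt-Rnr1 and 0.33 for mt-Rnr2. Without baicalin plus LPS libraries 2 and 3 they were 0.090 for Mrps21, 0.045 for Mrps33, 0.12 for Mrpl12, 0.026 for Mrpl33, 0.16 for Mrps18b, 0.057 for Mrps34 and 0.14 for mt-Rnr2. With library totals they were 0.028 for Mrps21, 0.056 for Mrpl12 and 0.027 for Mrpl44. With log2(FPKM + 0.1) they were 0.0092 for Mrps21, 0.056 for Mrpl12, 0.031 for Mrpl44 and 0.020 for Mrps34, and with log2(FPKM + 1) they were 0.0093 for Mrps21, 0.056 for Mrpl12, 0.029 for Mrpl44 and 0.0081 for Mrps34. In limma-voom the value was -0.024 for Mrps10. With quality weights they were -0.025 for Mrps10, 0.047 for Mrpl33, -0.20 for Mrps36, -0.082 for Mrps18c, 0.0067 for Mrpl17 and 0.19 for Mrps34. Leaving out 1 library, the ranges were -0.14 to 0.11 for Mrpl12, -0.20 to 0.048 for Mrps18b, -0.20 to 0.028 for Mrps21, -0.13 to 0.074 for Mrps10, -0.11 to 0.13 for Mrps36, -0.16 to 0.015 for Mrpl33, -0.072 to 0.11 for Mrps18c and -0.20 to 0.12 for Mrps34.

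Depth does not limit the members, at 91 counts or more in every library.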

Other observations

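Many members start close to another gene. By annotated starts, 33 of 77 members (42.9%) had a protein-coding gene on the other strand starting within 1000 bases, head to head, against 14.8% of 14009 tested protein-coding genes. In 15 of the 33 the annotated bodies of member and neighbour overlap, so reads there cannot be told apart. One such pair lies within the family: Mrpl46 and Mrps11, whose starts are 412 bases apart on chromosome 7 and whose bodies overlap. Mrpl46 was at 15.7, 17.7, 17.3, 13.4 and 16.5 CPM in the baicalin plus LPS libraries, against 22.5, 24.2, 22.5, 14.6 and 12.5 CPM in the LPS libraries. Mrps11 was at 6.08, 7.24, 5.56, 6.39 and 7.56 CPM in the baicalin plus LPS libraries, against 7.71, 7.74, 7.83, 6.94 and 5.58 CPM in the LPS libraries. Both genes were highest in LPS libraries 1, 2 and 3, by a smaller margin for Mrps11. Other neighbours also serve mitochondria: Ndufs6 and Ndufb5, subunits of respiratory complex I, beside Mrpl36 and Mrpl47, Twnk, the mitochondrial DNA helicase, beside Mrpl43, and Sars2, the mitochondrial seryl-tRNA synthetase, beside Mrps12. Of these, Ndufs6, Ndufb5 and Twnk overlap the member beside them. Of the 33 neighbours 31 were tested, 18 had a negative log2 fold change (all genes 50.6%), and 0 passed the adjusted threshold in edgeR, at a median of -0.06. At an unadjusted p under 0.05, 3 were lower (Pnpla7, Twnk and Apba3) and 3 higher (Eme1, Ncapd2 and Ska3), where all genes gave 5.88% lower and 5.26% higher. Among them Twnk was at 23.1 ± 3.15 CPM in baicalin plus LPS and 30.9 ± 4.26 CPM in LPS (SD, n = 5 each). Its log2 fold change was -0.42 ± 0.13 (SE), with an edgeR adjusted p of 0.301, beside -0.07 ± 0.14 for Mrpl43.

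The symbol pattern also matched 4 processed pseudogenes, Mrpl23-ps1, Mrpl48-ps, Mrps36-ps1 and Mrps36-ps2, which are not members. Their mean levels were between 0.0983 and 0.945 CPM in baicalin plus LPS and between 0.0622 and 0.994 CPM in LPS, far under those of their parent genes. The 77 members lie on 17 chromosomes, 11 of them on chromosome 11.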
